A study of Homo sapiens with 9 samples.

Results

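Potassium and calcium channel genes were followed in whole spinal cord organoids (SCOs) by bulk RNA sequencing. The set was chosen by name: every protein-coding gene with a KCN symbol followed by letters and a number, and the CACNA1, CACNA2D, CACNB and CACNG genes. It held 113 of the 31589 genes that the 3 deposited tables list, 87 of them potassium channel (KCN) genes and 26 of them calcium channel (CACN) genes. SCOs were grown from WTC, a human induced pluripotent stem cell line, and the labels give their genotype as WT. According to the study's methods the cells were clones of WTC with a reporter cassette at SOX10, of which some also carry small changes in the other SOX10 allele, and a library pooled several organoids. Groups were vehicle (titles FGF), VPA (valproic acid, an inhibitor of histone deacetylases) and VPA+Rapamycin (Rapamycin inhibits the mTOR kinase), each for 96 h by the labels and with 3 libraries, and the study kept its organoids in FGF in all of them. In its Results the study states a shorter VPA exposure than the labels, while a supplementary legend describes one as long as theirs. It also describes 3 clones with organoids pooled by clone, and the sample descriptions repeat 1 code per replicate number in every group, but neither source names the clone of a library, so p-values measure the spread between these libraries.

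Voltage-gated potassium channels open when the membrane depolarises and end or space out action potentials, while inward rectifiers and leak channels of the K2P family set the resting potential. Voltage-gated calcium channels let calcium in on depolarisation and couple firing to transmitter release, gene expression and, in young neurons, growth. A calcium channel has a pore subunit (alpha1), and beta and alpha2delta subunits that govern how much of it reaches the membrane. Several CACNG genes code instead for TARPs, partners of AMPA-type glutamate receptors.

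Depth was even, with 15290436 to 17417478 reads counted on genes per library, and the channel genes together took 0.147% to 0.180% of them. Vehicle replicates 1 and 3 lay furthest apart, with a chi-square per gene of 39.1. Replicate 2 lay between them, at 13.5 against replicate 1 and 17.9 against replicate 3, where sampling noise alone would give about 1. Some results that rest on vehicle replicate 3 are given with and without it. Class sums and marker ranges are given only with it. Of the 113 channel genes, 90 were abundant enough to be tested in at least 1 comparison and 23 in none, and CACNG5 and KCNJ1 had at most 3 reads in every library. Levels below are normalised counts (reads scaled to a common library size), or, to compare genes, RPKM, the same reads per kilobase of gene and scaled to depth. A log2 change is the log2 fold change of the first condition over the second, with its standard error (SE). "Raised" and "lowered" mean an adjusted p of at most 0.05 in edgeR's quasi-likelihood test over all genes of the comparison. In whole organoids, fewer cells of a type and less RNA per cell cannot be told apart.

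Promoters are shown for 4 channel genes that the results turn on: CACNA2D1, CACNA2D3 and CACNA1E, which were lowered in VPA and higher again with Rapamycin, and KCNG3, which was raised in VPA. Each is the 250 bases before a RefSeq start in GRCh38.p14 (chr7:82443957-82444206, minus strand; chr3:54122302-54122551, plus strand; chr1:181483267-181483516, plus strand; chr2:42493983-42494232, minus strand), and capitals mark CG dinucleotides.
CACNA2D1: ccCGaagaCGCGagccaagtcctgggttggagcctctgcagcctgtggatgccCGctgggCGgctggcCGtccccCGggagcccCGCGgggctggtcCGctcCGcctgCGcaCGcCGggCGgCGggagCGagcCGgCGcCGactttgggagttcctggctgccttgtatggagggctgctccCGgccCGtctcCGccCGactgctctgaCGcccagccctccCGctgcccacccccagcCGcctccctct
CACNA2D3: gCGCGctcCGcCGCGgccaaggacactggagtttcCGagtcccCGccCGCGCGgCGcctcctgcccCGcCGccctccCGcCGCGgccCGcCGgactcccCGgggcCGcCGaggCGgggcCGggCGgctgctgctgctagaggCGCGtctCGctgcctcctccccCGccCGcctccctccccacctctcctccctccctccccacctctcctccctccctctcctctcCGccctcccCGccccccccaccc
CACNA1E: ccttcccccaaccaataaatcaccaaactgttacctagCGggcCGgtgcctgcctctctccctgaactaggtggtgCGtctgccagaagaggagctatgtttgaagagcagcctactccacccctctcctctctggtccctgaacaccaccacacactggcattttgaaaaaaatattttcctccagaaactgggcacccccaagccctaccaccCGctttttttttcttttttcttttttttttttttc
KCNG3: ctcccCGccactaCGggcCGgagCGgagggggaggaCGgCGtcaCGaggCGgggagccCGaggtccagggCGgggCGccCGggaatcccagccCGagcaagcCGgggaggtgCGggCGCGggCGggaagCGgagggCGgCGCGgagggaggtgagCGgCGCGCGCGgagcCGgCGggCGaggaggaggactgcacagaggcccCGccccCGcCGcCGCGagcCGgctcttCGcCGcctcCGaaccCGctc
CACNA2D1 held 27 CG dinucleotides, CACNA2D3 held 31 and KCNG3 held 40, while CACNA1E held 4. So genes with the same direction of change had promoters both rich and poor in CG. Starts of 80 of the 113 channel genes were matched by symbol, and their 125 promoters held a median of 16.0 CG dinucleotides, against 11.0 over all 35116 promoters of this length. The letters TGANTCA, with N as any base, take in the sites of AP-1 factors and are looser than them. These letters were searched for on both strands and found in 9 of the 125 (7.20%), against 6.57% of all promoters. None of the 4 promoters shown holds them. Among the called genes they stood before KCNJ4, raised in VPA, and before 1 start of KCNMA1, higher with Rapamycin. A match is a description of letters and no match says nothing of the factor.

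The highest levels belonged to calcium channel family genes (plot of levels by gene). CACNG7, a TARP, had 74.7 ± 7.71 RPKM in vehicle, 84.2 ± 0.903 after VPA and 98.2 ± 6.10 after VPA+Rapamycin (SD, n = 3 each), far above every other channel gene. CACNG4, another TARP, had 25.2 ± 3.46 RPKM in vehicle and CACNA1H, a low-voltage-activated (T-type) pore, had 22.6 ± 3.27 (SD, n = 3), and these neighbours overlapped within their spread. KCNH2, the hERG channel, followed with 11.4 ± 0.486 RPKM in vehicle (SD, n = 3). It did not pass in VPA against vehicle, with a log2 change of -0.14 (adjusted p = 0.402). In all, 41 channel genes had a mean of at least 1 RPKM and 23 had under 0.1.

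**Figure D1:**
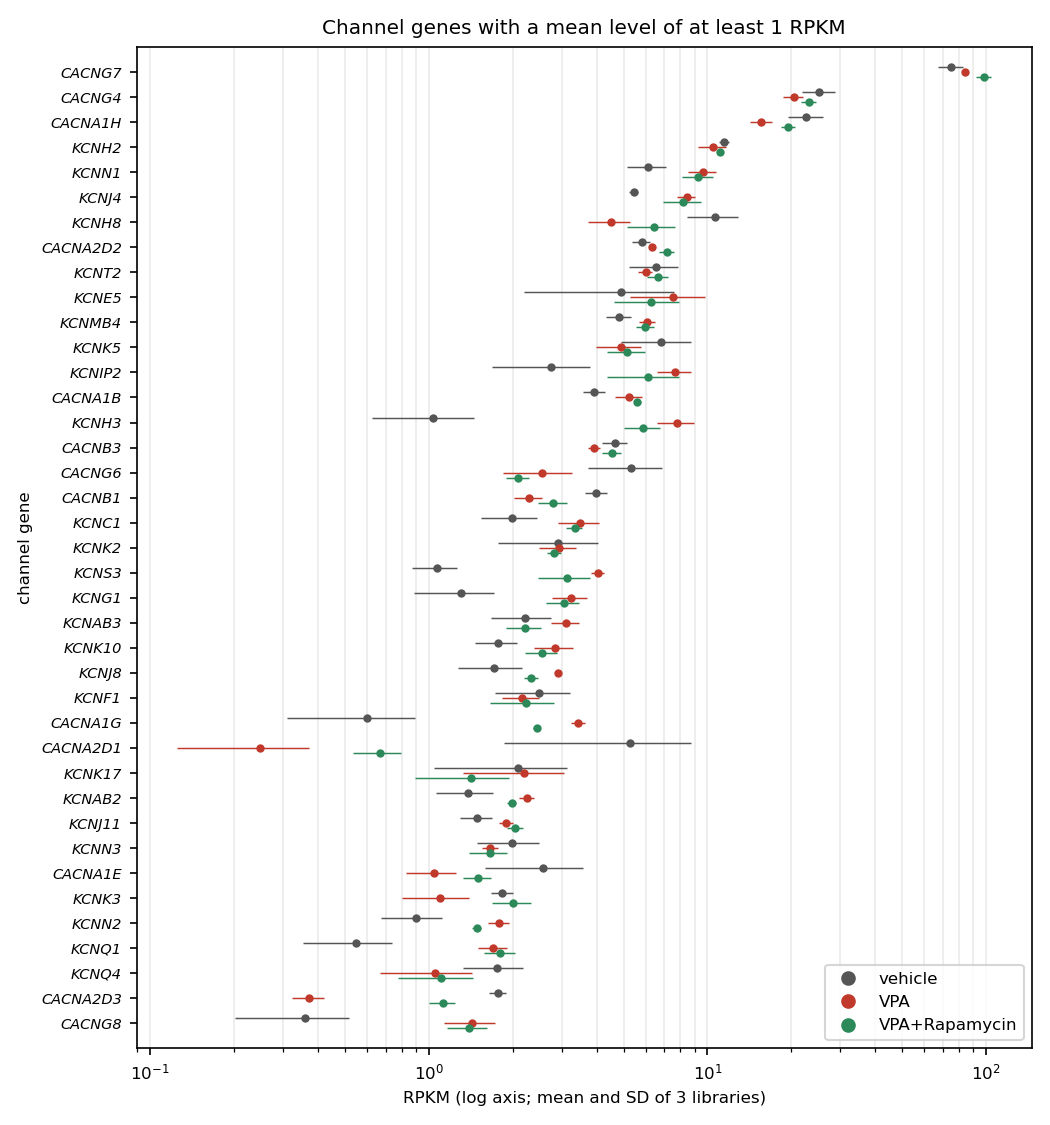
Level of channel genes with a mean of at least 1 RPKM, as the mean and SD of 3 libraries in vehicle, VPA and VPA+Rapamycin, on a log axis. CACNG7 stands far to the right of the rest, and vehicle and VPA lie apart for CACNA2D1, CACNA2D3, KCNH3 and CACNA1G and on each other for KCNH2.

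Summed by class, the level of the pore subunits Kv1 to Kv4 was 9.09 ± 0.248 RPKM in vehicle, 15.1 ± 1.82 after VPA and 15.1 ± 0.621 after VPA+Rapamycin (SD, n = 3 each). The alpha2delta class stood at 12.9 ± 3.12 RPKM in vehicle, 7.03 ± 0.201 after VPA and 8.96 ± 0.594 after VPA+Rapamycin (SD, n = 3 each). Its vehicle libraries ranged from 10.6 to 16.4 RPKM. CACNA2D1, a gene of this class, had 1368 normalised counts in vehicle replicate 3, against 408 and 584 in replicates 1 and 2. All potassium channel genes summed to 117 ± 4.54 RPKM in vehicle, 147 ± 9.20 after VPA and 142 ± 7.27 after VPA+Rapamycin, and all calcium channel genes to 163 ± 8.38, 151 ± 3.19 and 174 ± 7.86 (SD, n = 3 each). The library ranges of vehicle and VPA did not overlap for the potassium channel sum and overlapped for the calcium channel sum. Most of the calcium channel sum came from the CACNG genes, TARPs included, at 107 ± 7.145, 108.9 ± 1.39 and 125.5 ± 6.578 RPKM. In the same order, the beta class stood at 10.47 ± 0.6054, 7.311 ± 0.1326 and 8.651 ± 0.2536. T-type pores stood at 24.11 ± 3.297, 19.64 ± 1.698 and 22.45 ± 1.14, and P/Q-, N- and R-type pores at 7.443 ± 1.237, 7.267 ± 0.4714 and 8.112 ± 0.209 (SD, n = 3 each). These sums were not tested.

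VPA against vehicle asked what VPA does to the channel genes of SCOs. Potassium channel genes were mostly raised where they passed, and calcium channel genes mostly lowered. Of 88 channel genes tested, 24 were raised (27.3%, against 16.4% of all genes tested) and 14 lowered (15.9%, against 15.7%), so the raised share lay above the background and the lowered share near it. Among 66 potassium channel genes, 21 were raised and 5 lowered, with a median log2 fold change of 0.42. Among 22 calcium channel genes, 3 were raised and 9 lowered, with a median of -0.43. The median over all genes tested was -0.003. Without vehicle replicates 1, 2 or 3 the counts were 26 raised and 14 lowered, 18 and 10, and 31 and 18. Without VPA replicates 1, 2 or 3 they were 18 and 8, 16 and 10, and 18 and 11. Calls lost in at least 1 of these fits were those of KCNK6, KCNK10, KCNC4, KCNJ8, KCNH5, KCNQ5, KCNAB2 and CACNA1B among the raised genes and of CACNG1, CACNG2, CACNG6, KCNJ9, KCNC2, KCNK3 and CACNB2 among the lowered ones.

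**Figure D2:**
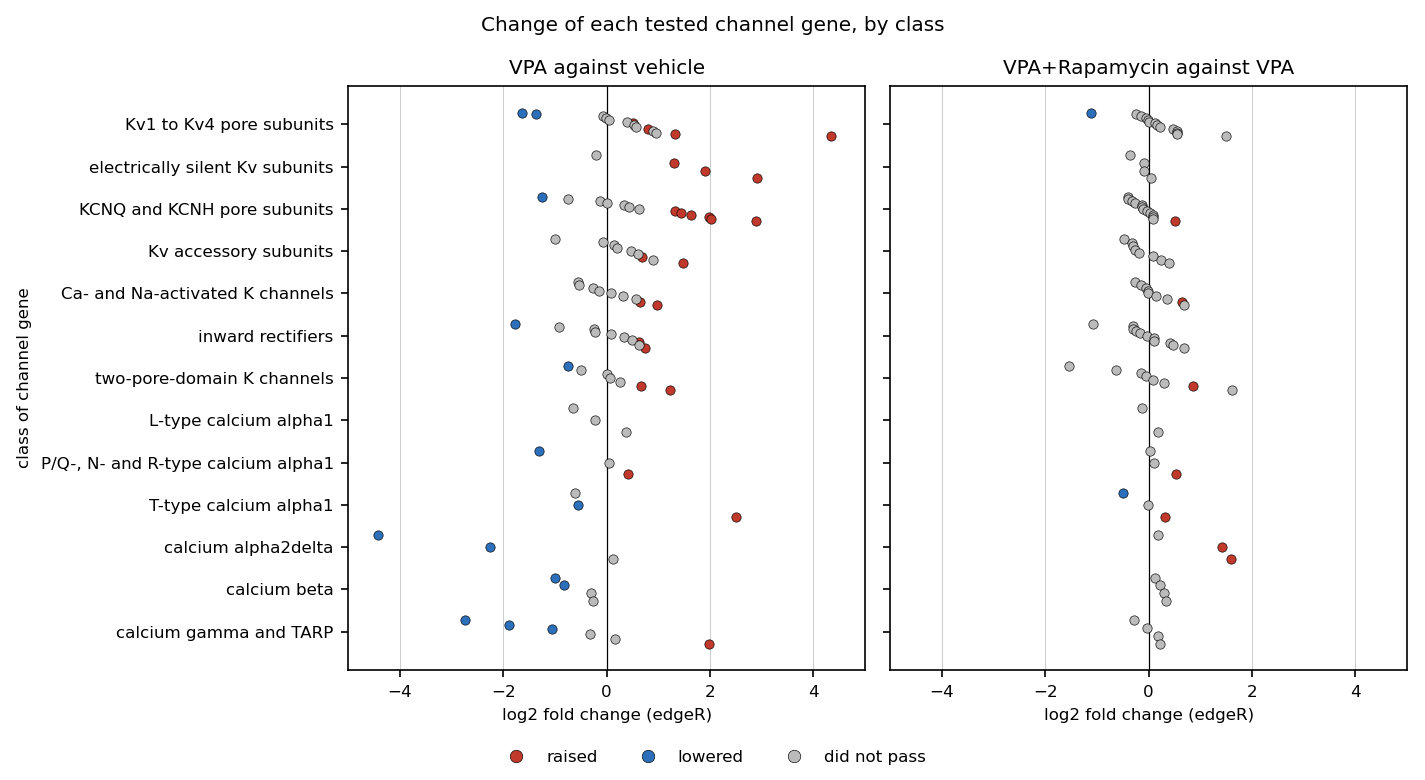
Log2 fold change of each tested channel gene by class, for VPA against vehicle (left) and VPA+Rapamycin against VPA (right); red and blue points passed an adjusted p of 0.05. On the left the potassium channel classes carry 21 red points and 5 blue ones and the calcium channel classes 3 red and 9 blue, and on the right 7 points are red and 2 blue.

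Voltage-gated potassium pores of the KCNH and KCNQ families gave the most raised genes of any class, 6 of 13. Their raised share was 46.2%, against 16.4% of all genes tested. KCNH3 (ENSG00000135519, chromosome 12, 49539157 to 49558308, plus strand), an ELK-type channel found mainly in forebrain neurons, had 54.7, 59.8 and 108 normalised counts in vehicle, 476, 549 and 643 after VPA and 352, 455 and 459 after VPA+Rapamycin. Every VPA library was above every vehicle library, a 7.41-fold difference (log2 change 2.89, SE 0.25, adjusted p = 2.38e-05). KCNH3 overlaps MCRS1 on the opposite strand, which had more reads and a log2 change of 0.24 (adjusted p = 0.185). KCNQ1, a pore of delayed-rectifier channels, was raised 3.08-fold (adjusted p = 0.00165), while KCNQ1OT1, the antisense RNA inside it with a like number of reads, was lowered (log2 fold change -0.77, adjusted p = 0.0284). The others raised were KCNQ3, a pore of the M-current that damps repeated firing, with a log2 change of 1.31 (adjusted p = 0.00195), KCNH4 with 1.44 (adjusted p = 0.00302), KCNQ5 with 1.98 (adjusted p = 0.0274) and KCNH5 with 2.02 (adjusted p = 0.0184). KCNQ5 and KCNH5 had few reads, with a mean of 8.08 and 4.83 normalised counts in vehicle. KCNH8, another ELK-type channel, went the other way and is given with the lowered genes.

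Among Kv1 to Kv4 pores, 4 of 14 were raised (28.6%) and 2 lowered (14.3%), against 16.4% and 15.7% of all genes tested. KCNA1 (chromosome 12, 4909905 to 4918256, plus strand), a Shaker-type channel of axons that is mutated in episodic ataxia, had 0.977, 7.61 and 1.02 normalised counts in vehicle, 56.2, 58.1 and 83.5 after VPA and 23.6, 39.4 and 28.1 after VPA+Rapamycin. Vehicle libraries thus lay near the limit of detection, with 1, 7 and 1 reads, and the 20.3-fold difference (log2 change 4.34, SE 0.58, adjusted p = 0.000353) is imprecise. Without vehicle replicate 2, which held most of these reads, the log2 fold change was 5.87. Among Shaw-type KCNC genes, which let neurons fire fast, KCNC1 had a log2 change of 0.80 (adjusted p = 0.00681) and KCNC4 of 0.52 (adjusted p = 0.0343). KCNC2 was lowered at few reads (log2 change -1.64, adjusted p = 0.0348), and its vehicle and VPA libraries overlapped. KCND3, a pore of the A-type current that delays firing, had 86.0, 64.2 and 121 normalised counts in vehicle and 27.6, 38.7 and 39.4 after VPA (log2 change -1.37, SE 0.31, adjusted p = 0.00699).

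Electrically silent subunits form no channel alone and alter the Kv2 pores that they join. Of 4 tested, 3 were raised (75%, against 16.4% of all genes tested). KCNS3 had 65.5, 55.5 and 45.0 normalised counts in vehicle, 201, 222 and 203 after VPA and 201, 140.4 and 144 after VPA+Rapamycin, so all VPA libraries were above all vehicle libraries (log2 change 1.90, SE 0.21, adjusted p = 0.000108). KCNG3 rose from 5, 2 and 4 reads in vehicle to 31, 28 and 30 in VPA (log2 change 2.90, SE 0.49, adjusted p = 0.00132). KCNG1 had a log2 change of 1.30 (adjusted p = 0.00152).

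**Figure D3:**
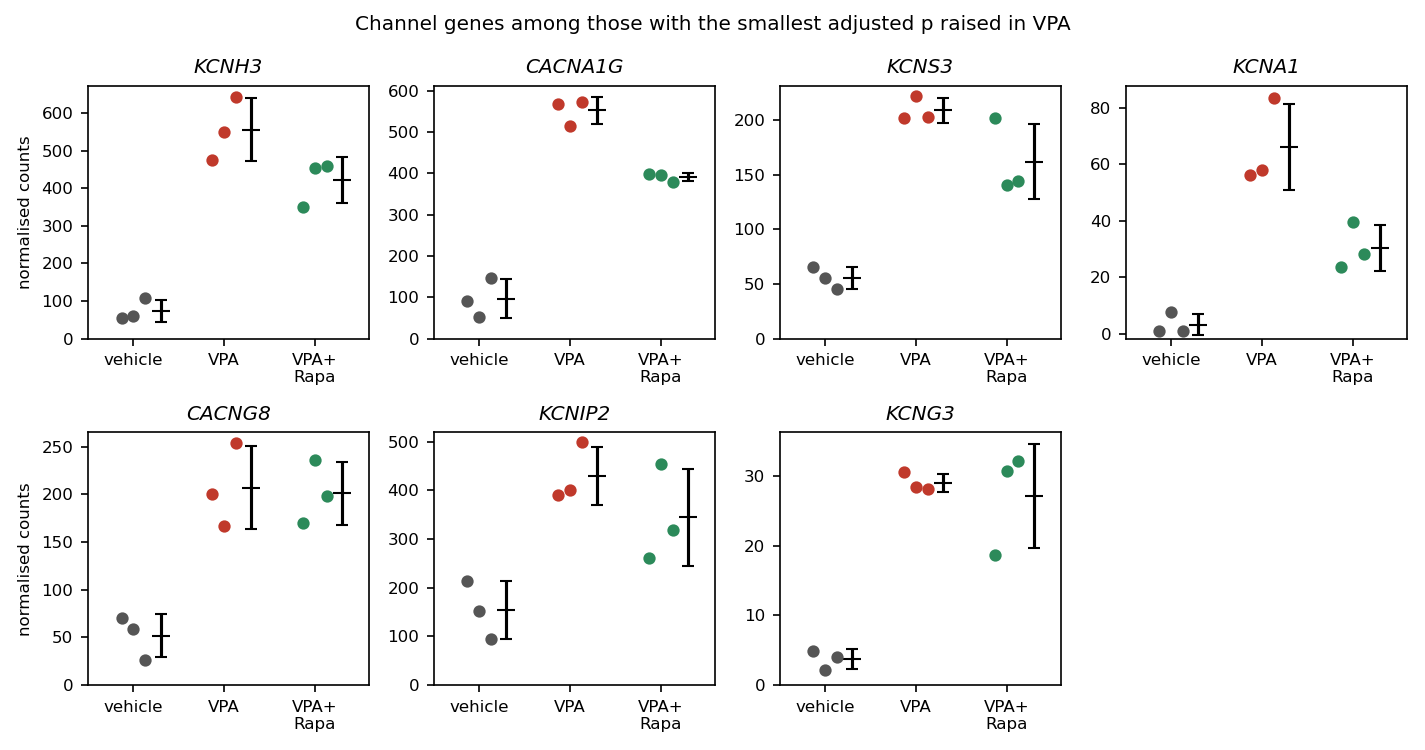
Normalised counts in each library (points) and the mean and SD of 3 libraries (bars) for 7 of the channel genes with the smallest adjusted p among those raised in VPA. In each panel every VPA library lies above every vehicle library. For CACNA1G, KCNA1 and KCNH3 every VPA+Rapamycin library lies below every VPA library, and of these KCNH3 did not pass in that comparison.

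Accessory, inward-rectifier, calcium- and sodium-activated and leak potassium channel genes gave 2 raised genes in each class, of 9, 10, 9 and 7 tested. These raised shares were 22.2%, 20%, 22.2% and 28.6%, against 16.4% of all genes tested, each on few genes. Lowered were 1 inward rectifier (10%) and 1 leak channel (14.3%), against 15.7% of all genes tested. KCNIP2, a calcium-binding subunit of the A-type channels, had 214, 152 and 95.1 normalised counts in vehicle, 389.7, 399 and 498 after VPA and 261, 454 and 317 after VPA+Rapamycin (log2 change 1.47, SE 0.24, adjusted p = 0.00125 for VPA against vehicle). KCNAB2, a beta subunit of Shaker-type channels, was raised (log2 change 0.69, adjusted p = 0.0129); it overlaps NPHP4. Small-conductance calcium-activated channels, which give the after-hyperpolarisation, were raised in KCNN1 (log2 change 0.65, adjusted p = 0.00760) and KCNN2 (log2 change 0.98, adjusted p = 0.00613). Among inward rectifiers, KCNJ4 (log2 change 0.62, adjusted p = 0.00927) and KCNJ8, the pore of ATP-sensitive channels of vessels (log2 change 0.74, adjusted p = 0.0349), were raised, and KCNJ9, a G-protein-gated subunit, was lowered (log2 change -1.77, adjusted p = 0.0212). Of the leak channels, KCNK10 (log2 change 0.67, adjusted p = 0.0141) and KCNK6 (log2 change 1.23, adjusted p = 0.0448) were raised and KCNK3 was lowered. Most genes of these classes did not pass, among them KCNT2, a sodium-activated channel, with -0.14 (adjusted p = 0.509), KCNK5, an acid-sensitive leak channel, with -0.49 (adjusted p = 0.0894) and KCNE5 with 0.61 (adjusted p = 0.251). KCNK5 was lowered without vehicle replicate 3 (adjusted p = 0.0156).

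Calcium channel genes were lowered mainly outside the pore genes, in the alpha2delta, beta and CACNG classes, the last of which includes TARPs. Lowered were 2 of 3 alpha2delta genes tested (66.7%), 2 of 4 beta genes (50%) and 3 of 6 CACNG genes (50%). T-type pores and P/Q-, N- and R-type pores each gave 1 of 3 (33.3%), and L-type pores 0 of 3. Of all genes tested 15.7% were lowered, and each of these shares rests on few genes. CACNA2D1 (chromosome 7, 81946444 to 82443798, minus strand), the main binding site of gabapentin, had 408, 584 and 1368 normalised counts in vehicle, 58.2, 27.5 and 25.3 after VPA and 79.6, 118 and 99.9 after VPA+Rapamycin. Vehicle replicate 3 was the highest, and every VPA library lay far below every vehicle library (log2 change -4.42, SE 0.47, adjusted p = 9.17e-05). Without vehicle replicate 3 the log2 fold change was -3.75. CACNA2D3 (chromosome 3, 54122547 to 55074557, plus strand), a further alpha2delta subunit, had 125, 142 and 142 normalised counts in vehicle, 27.6, 25.5 and 32.8 after VPA and 91.4, 92.3 and 76.0 after VPA+Rapamycin. The groups were tight and did not overlap (VPA against vehicle: log2 change -2.26, SE 0.24, adjusted p = 9.55e-05). LRTM1, which lies within CACNA2D3 on the other strand, went in the opposite direction (log2 fold change 2.29, adjusted p = 0.00241). CACNA2D2, the leading alpha2delta gene by RPKM over all 9 libraries, did not pass (log2 change 0.12, SE 0.11, adjusted p = 0.462). In vehicle its level of 5.80 ± 0.431 RPKM overlapped that of CACNA2D1, 5.29 ± 3.43 (SD, n = 3 each).

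All 4 beta subunit genes had lower estimates in VPA and 2 passed (50%, against 15.7% of all genes tested lowered). CACNB1, best known in skeletal muscle, had 506, 422 and 475 normalised counts in vehicle, 275, 234 and 294 after VPA and 324, 289 and 368 after VPA+Rapamycin (log2 change -0.81, SE 0.14, adjusted p = 0.00179 for VPA against vehicle). CACNB2 had a log2 change of -0.996 (adjusted p = 0.0208), and CACNB3, the beta gene with the highest level, of -0.26 (adjusted p = 0.138). Among the CACNG genes, CACNG6 was lowered (log2 change -1.06, adjusted p = 0.0125), and so were CACNG1 (log2 change -1.88, adjusted p = 0.0297) and CACNG2, the TARP stargazin (log2 change -2.74, adjusted p = 0.0211), both at few reads. CACNG8, a TARP, was raised, from 70.4, 58.7 and 26.6 normalised counts in vehicle to 200.3, 167 and 253 after VPA (log2 change 1.98, SE 0.31, adjusted p = 0.000913). For CACNG6, the call was lost without VPA replicates 1 or 3, left out 1 at a time (adjusted p = 0.0604 to 0.0605).

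The pore genes of the T-type family, which open near rest and drive burst firing, parted. CACNA1G (chromosome 17, 50561068 to 50627474, plus strand) had 89.9, 53.3 and 146 normalised counts in vehicle, 568, 515 and 573 after VPA and 399, 395 and 379 after VPA+Rapamycin. It was raised 5.66-fold in VPA (log2 change 2.50, SE 0.27, adjusted p = 0.000108). CACNA1H, at a far higher level, had 3553, 3415 and 2689 normalised counts in vehicle, 2139.9, 2066 and 2455 after VPA and 2607, 2919 and 2767 after VPA+Rapamycin and was lowered (log2 change -0.55, SE 0.12, adjusted p = 0.00681). As RPKM, CACNA1H still stood above CACNA1G in VPA, at 15.6 ± 1.45 against 3.44 ± 0.203 (SD, n = 3 each), from 22.6 ± 3.27 against 0.602 ± 0.292 in vehicle. Of the high-voltage-activated pores of nerve endings, CACNA1B (N-type) was raised (log2 change 0.41, adjusted p = 0.0296), CACNA1E (R-type) lowered (log2 change -1.32, SE 0.26, adjusted p = 0.00332) and CACNA1A (P/Q-type) did not pass (log2 change 0.05, adjusted p = 0.820). For CACNA1B the call was lost without VPA replicates 1, 2 or 3, left out 1 at a time (adjusted p = 0.0534 to 0.139). L-type pores had the lowest summed level of any class, 0.702 ± 0.0578 RPKM in vehicle (SD, n = 3), and all 3 tested missed the threshold. CACNA1C, their most abundant gene over all 9 libraries but not in vehicle, where CACNA1D was higher, had a log2 change of 0.38 (adjusted p = 0.284), but passed without vehicle replicate 3 (log2 fold change 0.67, adjusted p = 0.0437).

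**Figure D4:**
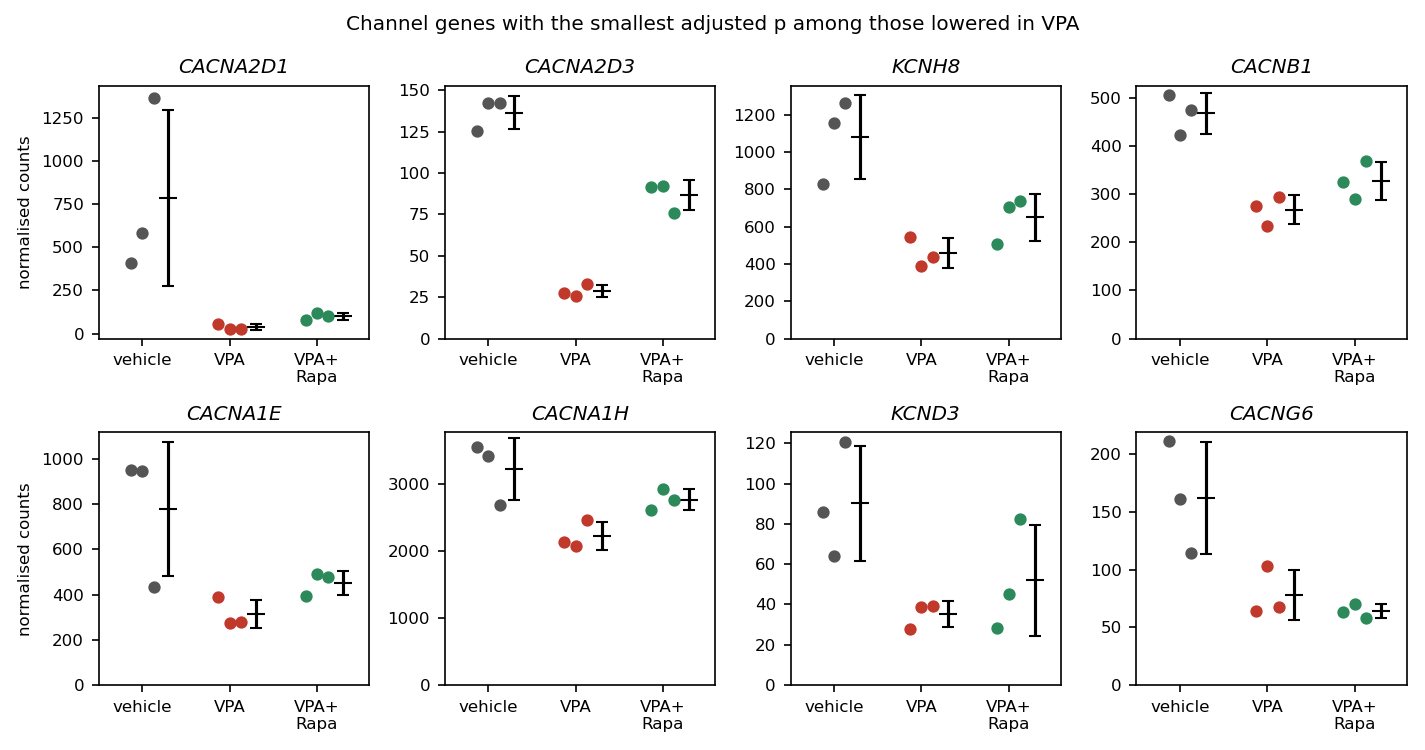
Normalised counts in each library (points) and the mean and SD of 3 libraries (bars) for the 8 channel genes with the smallest adjusted p among those lowered in VPA. In CACNA2D3, CACNA1H, CACNA1E and CACNA2D1 every VPA+Rapamycin library lies above every VPA library, and in CACNG6 the 2 groups overlap.

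Cell type markers also moved between the same groups. Beside their counts, 16.4% of all genes tested were raised and 15.7% lowered in VPA against vehicle. For VPA+Rapamycin against VPA these shares were 3.01% and 3.73%. Of 12 neuron markers 6 were lowered in VPA, with a summed level of 1845 to 3314 CPM (reads scaled to library size) in vehicle, 1717 to 1859 after VPA and 1817 to 2023 after VPA+Rapamycin. Mesenchymal markers summed to 181 to 355 CPM in vehicle, 639 to 792 after VPA and 310 to 429.6 after VPA+Rapamycin. In VPA 3 of 12 were raised, and with Rapamycin against VPA 6 of 12 were lowered. Those raised were COL1A1, COL1A2 and THY1, and COL1A1 and COL1A2 held most of the sum. Their means were 2059 and 1202 normalised counts in vehicle and 4463 and 5277 after VPA. COL3A1, PRRX1 and PDGFRA had lower estimates in VPA, the remaining tested ones higher, and none of these passed. Muscle markers summed to 16.5 to 33.8, 40.8 to 46.6 and 22.6 to 29.5 CPM and endothelial markers to 6.07 to 9.11, 8.70 to 12.7 and 9.10 to 10.1 CPM, with 3 of 7 and 1 of 4 tested raised in VPA. Of 10 neural progenitor markers 1 was raised and 3 were lowered, with sums of 3107 to 3665, 3498 to 3799 and 3294 to 3674 CPM, and of 8 neural crest markers 2 were raised and 4 lowered, with sums of 399 to 486, 393 to 419 and 391 to 426 CPM. With Rapamycin against VPA, 3 of 12 neuron markers were raised and 1 was lowered. Of 10 neural progenitor markers 1 was raised and 2 were lowered, and of 8 neural crest markers 2 were raised and 1 lowered. Among 7 muscle markers 0 were raised and 2 lowered, and of 4 endothelial markers 0 passed. Each list had reads for every marker in the tables. Their part in the channel results was not tested.

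VPA+Rapamycin against VPA asked what Rapamycin changes in SCOs that also receive VPA. Few channel genes passed: 7 of 86 were raised (8.14%, against 3.01% of all genes tested) and 2 lowered (2.33%, against 3.73%). Of 19 calcium channel genes tested 4 were raised (21.1%) and 1 lowered (5.26%). Among 67 potassium channel genes 3 were raised (4.48%), near the background, and 1 lowered (1.49%). A single fit over all 9 libraries, vehicle included, kept 1 raised gene, CACNA2D3, and 0 lowered, with 10 higher and 4 lower at an unadjusted p under 0.05 in edgeR, and DESeq2 on the 6 libraries gave 8 raised and 2 lowered. This comparison shares its VPA libraries with VPA against vehicle, so a gene's changes in the 2 comparisons are not independent.

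Alpha2delta genes had the largest changes among the genes raised with Rapamycin. CACNA2D3, at 27.6, 25.5 and 32.8 normalised counts in the VPA libraries and 91.4, 92.3 and 76.0 in the VPA+Rapamycin libraries, was raised 3.02-fold (log2 change 1.59, SE 0.26, adjusted p = 0.00130) and passed under every alternative run. Its vehicle libraries were still higher than the VPA+Rapamycin ones (log2 change -0.67, SE 0.20, adjusted p = 0.0402 for VPA+Rapamycin against vehicle). Against vehicle the call was lost with no filter on low counts (adjusted p = 0.0660) and without vehicle replicates 2 or 3 or VPA+Rapamycin replicates 1, 2 or 3, left out 1 at a time (adjusted p = 0.0572 to 0.150). CACNA2D1 was raised 2.69-fold (log2 change 1.43, SE 0.30, adjusted p = 0.00783) and stayed far under vehicle (log2 change -3.00, SE 0.40, adjusted p = 0.000979). The call was lost in the single fit over all 9 libraries (adjusted p = 0.185). Against vehicle, its log2 fold change without vehicle replicate 3 was -2.32.

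Calcium pores CACNA1H and CACNA1E were raised more modestly. CACNA1H had a log2 change of 0.32 (SE 0.08, adjusted p = 0.0222), with every VPA+Rapamycin library above every VPA library, and -0.23 (adjusted p = 0.213) against vehicle, where it passed without vehicle replicate 3 (adjusted p = 0.0245). The call was lost in the single fit over all 9 libraries (adjusted p = 0.234) and without VPA replicates 1 or 2 or VPA+Rapamycin replicates 2 or 3, left out 1 at a time (adjusted p = 0.0519 to 0.150). CACNA1E had 953, 947 and 434 normalised counts in vehicle, 388, 274 and 281 after VPA and 391.95, 489 and 476 after VPA+Rapamycin. Vehicle replicate 3 was the lowest of its group, and every VPA+Rapamycin library was above every VPA library (log2 change 0.53, SE 0.14, adjusted p = 0.0251). This call was lost in the single fit over all 9 libraries (adjusted p = 0.366) and without VPA replicates 2 or 3 or VPA+Rapamycin replicates 2 or 3, left out 1 at a time (adjusted p = 0.0692 to 0.138). CACNA1G was one of the genes lowered with Rapamycin (log2 change -0.49, SE 0.10, adjusted p = 0.00590), and all its VPA+Rapamycin libraries remained above all vehicle libraries (log2 change 2.00, SE 0.28, adjusted p = 0.00134). For CACNA1G the call against VPA was lost in the single fit over all 9 libraries (adjusted p = 0.342).

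Of the 67 potassium channel genes tested, 3 were raised with Rapamycin (4.48%, against 3.01% of all genes tested). KCNK3, the acid-sensitive leak channel TASK, had 170.04, 194 and 203 normalised counts in vehicle, 135, 78.5 and 125 after VPA and 187, 243 and 187 after VPA+Rapamycin. It was lower in VPA than in vehicle (log2 change -0.75, SE 0.22, adjusted p = 0.0244) and higher with Rapamycin than in VPA (log2 change 0.87, SE 0.20, adjusted p = 0.0132), and VPA+Rapamycin and vehicle overlapped. Against vehicle, the VPA call was lost without vehicle replicate 2 or VPA replicates 2 or 3, left out 1 at a time (adjusted p = 0.0550 to 0.1002). For Rapamycin against VPA the call was lost in the single fit over all 9 libraries (adjusted p = 0.0790) and without VPA replicate 2 or VPA+Rapamycin replicate 2, left out 1 at a time (adjusted p = 0.0512 to 0.0750). KCNH8 had 829.7, 1154 and 1263 normalised counts in vehicle, 546, 389 and 437 after VPA and 506, 708 and 737 after VPA+Rapamycin. Its log2 change was -1.25 (adjusted p = 0.000473) for VPA against vehicle, 0.51 (adjusted p = 0.0332) for VPA+Rapamycin against VPA and -0.74 (adjusted p = 0.0183) for VPA+Rapamycin against vehicle, and the VPA and VPA+Rapamycin libraries overlapped. Its call against VPA was lost in the single fit over all 9 libraries (adjusted p = 0.241) and without VPA replicates 2 or 3 or VPA+Rapamycin replicates 2 or 3, left out 1 at a time (adjusted p = 0.0897 to 0.177). The KCNH8 call of VPA+Rapamycin against vehicle was lost without vehicle replicate 2 or VPA+Rapamycin replicates 1 or 2, left out 1 at a time (adjusted p = 0.0509 to 0.0864). KCNMA1, the large-conductance (BK) channel gated by both calcium and voltage, had 235, 391.56 and 332 normalised counts in vehicle, 194, 270.03 and 198 after VPA and 349, 352 and 327 after VPA+Rapamycin. VPA libraries overlapped those of vehicle (log2 change -0.54, SE 0.21, adjusted p = 0.0678), a difference that passed without vehicle replicate 1 (adjusted p = 0.00654), and lay below all VPA+Rapamycin libraries (log2 change 0.64, SE 0.14, adjusted p = 0.00939). The KCNMA1 call was lost in the single fit over all 9 libraries (adjusted p = 0.145) and without VPA replicate 1 (adjusted p = 0.0580).

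KCNA1 was the other gene lowered with Rapamycin, with all its VPA+Rapamycin libraries below all VPA libraries and above all vehicle libraries (log2 change -1.11, SE 0.30, adjusted p = 0.0333). The KCNA1 call was lost in the single fit over all 9 libraries (adjusted p = 0.262) and without VPA replicates 1, 2 or 3 or VPA+Rapamycin replicates 1 or 3, left out 1 at a time (adjusted p = 0.0518 to 0.150). KCNH3 had a log2 change of -0.40 (adjusted p = 0.0678), with all its VPA+Rapamycin libraries below all VPA libraries. It passed without VPA replicate 1 (adjusted p = 0.0450), and MCRS1, which overlaps it, was lowered (log2 fold change -0.29, adjusted p = 0.0321). The electrically silent genes did not pass against VPA, with log2 changes of -0.36 (adjusted p = 0.213) for KCNS3, -0.09 (adjusted p = 0.920) for KCNG3 and -0.08 (adjusted p = 0.790) for KCNG1.

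VPA+Rapamycin against vehicle asked how far SCOs with both agents differ from controls, and it shares libraries with both comparisons above. Of 88 channel genes tested, 21 were raised (23.9%, against 9.81% of all genes tested) and 6 lowered (6.82%, against 9.22%). Of 66 potassium channel genes 17 were raised and 1, KCNH8, was lowered, and of 22 calcium channel genes 4 were raised and 5 lowered. Without vehicle replicates 1, 2 or 3 the counts were 21 raised and 6 lowered, 13 and 2, and 25 and 7. Without VPA+Rapamycin replicates 1, 2 or 3 they were 14 and 2, 11 and 2, and 14 and 3. KCNH3 remained 5.63-fold higher than in vehicle (log2 change 2.49, SE 0.25, adjusted p = 0.000278). KCNS3 (log2 change 1.54, adjusted p = 0.00229), KCNG1 (log2 change 1.22, adjusted p = 0.00532), KCNQ1 (log2 change 1.71, adjusted p = 0.00291) and CACNG8 (log2 change 1.94, adjusted p = 0.00240) were raised as well. CACNG7 had 3842, 3383 and 3139.5 normalised counts in vehicle, 3943, 3872 and 3870 after VPA and 4395, 4866 and 4361 after VPA+Rapamycin, and it passed against vehicle (log2 change 0.39, SE 0.11, adjusted p = 0.0319). Against VPA, DESeq2 called it (adjusted p = 0.0185) and edgeR did not (adjusted p = 0.0674), and VPA against vehicle passed without vehicle replicate 1 (adjusted p = 0.0434). For CACNG7 the call was lost without vehicle replicate 2 or VPA+Rapamycin replicates 1, 2 or 3, left out 1 at a time (adjusted p = 0.0840 to 0.129).

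On the lowered side, CACNG6 had 62.9, 70.2 and 58.3 normalised counts in the VPA+Rapamycin libraries against 211, 161 and 114 in the vehicle libraries (log2 change -1.35, SE 0.25, adjusted p = 0.00527). CACNB1 was also lowered (log2 change -0.53, adjusted p = 0.0284), and so was CACNA1E (log2 change -0.79, adjusted p = 0.0476), whose vehicle libraries overlapped those of VPA+Rapamycin. For CACNB1 the call was lost without vehicle replicate 2 or VPA+Rapamycin replicates 1, 2 or 3, left out 1 at a time (adjusted p = 0.0523 to 0.129). For CACNA1E it was lost with upper-quartile scaling (adjusted p = 0.0592) and without vehicle replicates 1 or 2 or VPA+Rapamycin replicates 1, 2 or 3, left out 1 at a time (adjusted p = 0.0867 to 0.177).

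Partner genes of the channels, from lists of 4 kinds, were read beside them. Of 8 potassium channel partners tested, 3 were raised in VPA against vehicle, and of 13 calcium channel partners 5 were raised and 1 lowered, where 16.4% of all genes tested were raised and 15.7% lowered. Of 9 genes for hyperpolarization-activated and leak cation channels 2 were raised and 2 lowered. Of 12 genes for calcium release and store-operated entry 4 were raised and 2 lowered. The raised shares of both partner lists and of the calcium release list lay above that background, each on few genes. The raised share of the cation channel list lay nearer to it. STAC2 and STAC, adaptors that bind L-type channels, had log2 changes of 2.02 (adjusted p = 2.19e-05) and 2.65 (adjusted p = 0.000330) in VPA against vehicle. ITPR1, a calcium release channel of the endoplasmic reticulum, had 1.98 (adjusted p = 0.000423), and STIM1, the sensor of its calcium store, 0.78 (adjusted p = 0.000810). FAM155B and UNC79, subunits of the NALCN leak channel, had 1.16 (adjusted p = 0.000522) and -0.95 (adjusted p = 0.00255). With Rapamycin against VPA, AMIGO1, a partner of Kv2 channels, was raised (log2 change 0.50, adjusted p = 0.0167), and STAC (log2 change -0.71, adjusted p = 0.0190), STAC2 (log2 change -0.45, adjusted p = 0.0400) and CALM3, a calmodulin gene (log2 change -0.25, adjusted p = 0.0426), were lowered. Against vehicle, VPA+Rapamycin had log2 changes of 1.57 (adjusted p = 0.000613) for STAC2, 1.09 (adjusted p = 0.00221) for FAM155B and 1.77 (adjusted p = 0.00388) for ITPR1.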

How the data were processed

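Libraries were poly-A selected and primed with random hexamers; the submitters' processing notes name HISAT2 2.0.5 and featureCounts 1.5.0-p3. The authors deposited raw counts per gene, on GRCh38, in 1 table for each pair of conditions, without normalization. The deposited tables also hold size-factor-scaled values, FPKM and the authors' own fold changes and p-values; these were not used, 36 of them per-sample columns. Strand use is not given in the sources used here, so reads of a gene and of one on the opposite strand cannot be told apart; of 42 channel genes called in any comparison, 8 overlap a gene with a mean count over 10% of their own, most of them named with their values; CACNB2 overlaps AL450384.2 and KCNC1 overlaps SERGEF. The deposited gene name, place, length and biotype were used to choose and scale genes.

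Conditions were compared 2 at a time, each time on the counts of the table that holds both, in R 4.3.3 with edgeR 4.0.16 (TMM, filterByExpr defaults, quasi-likelihood F test), and p-values were adjusted by the method of Benjamini and Hochberg over all genes tested, with a threshold of 0.05 and no minimum fold. Tests are two-sided. The SE was worked out from the log2 fold change and the F value. For levels, the counts of all 9 libraries were divided by their TMM-adjusted sizes, and RPKM were computed from them with the deposited gene length. Alternatives were DESeq2 1.42.0, upper-quartile scaling, leaving out the filter, asking for 10 counts or more in each library, a single fit of all 9 libraries, the replicate number as a block, and leaving out each library in turn. The scripts were tested on simulated data. Named are, in each comparison, up to 8 raised and 8 lowered channel genes with the smallest adjusted p, the 10 highest by RPKM, the highest of each class, those called in both VPA comparisons and up to 6 partner genes; other called genes, and those named beside them, were named after their values were seen. Channel genes, classes, partner and marker lists were chosen with earlier results of these data known. Counts cover all channel genes, but results of some single genes are not reported here. Of the channel genes GENCODE 29 lists by this name rule, 8 were not analysed here. Depth covers counting error only: 3 reads, taken as the floor, are 2.82 to 3.26 normalised counts.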

Additional observations from a re-analysis of the deposited data

How the results depend on the processing

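Each of 6 counts of called channel genes was recomputed under every alternative. Raised in VPA against vehicle, 24 by the chosen fit, ranged from 16 to 31 over the fits without 1 library, and lowered, 14, from 8 (without VPA replicate 1) to 18. For VPA+Rapamycin against VPA, raised genes went from 7 to 1 and lowered genes from 2 to 0 in the single fit over all 9 libraries, where all genes gave 44 raised and 69 lowered instead of 522 and 646. Lowered genes there were 5 with no filter on low counts and 4 in the blocked fit. Without 1 library each, the counts were 3 to 7 raised (3 without VPA replicate 2 or VPA+Rapamycin replicate 2, 4 without VPA+Rapamycin replicate 3) and 1 to 3 lowered (1 without VPA replicate 2, VPA replicate 3 or VPA+Rapamycin replicate 1). For VPA+Rapamycin against vehicle they were 11 to 25 raised and 2 to 7 lowered. The remaining counts under an alternative stayed within 1.5 times. Named channel genes kept their direction wherever they were called; of 1220 values of them under an alternative, 1129 stayed on the same side of the threshold, 72 lost a call and 19 gained one.

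With the replicate number as a block, channel genes were 22 raised and 15 lowered in VPA against vehicle, 8 and 4 in VPA+Rapamycin against VPA, and 24 and 8 in VPA+Rapamycin against vehicle. CACNA1B (adjusted p = 0.0581) and KCNK6 lost their calls in VPA against vehicle, where KCNMA1 gained one (adjusted p = 0.0430); KCNH3 (adjusted p = 0.0280), KCNK6 and KCNC2 gained one in VPA+Rapamycin against VPA, and KCND3 (adjusted p = 0.0419), CACNB2, KCNAB2, KCNK10 and KCNQ5 in VPA+Rapamycin against vehicle. Same-numbered libraries may come from the same clone, but no source says so, and deviations from their group means correlated at -0.0607 to 0.171, so pairing was not taken as given. By this measure 2, 3 and 5 of 6 libraries (VPA against vehicle, VPA+Rapamycin against VPA, VPA+Rapamycin against vehicle) correlated best with the library of their own number. Genes with few reads (KCNQ5, KCNH5, KCNG3, KCNA1, CACNG1, CACNG2) are limited by depth; with at least 10 counts in every library 21 raised and 10 lowered were called in VPA against vehicle.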
